A study of Mus musculus with 4 samples.

Results

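The comparison described here set KPC tumors of WT mice given D-CAN against KPC tumors of WT mice given PBS, cell class by cell class. KPC tumor cells, a mouse pancreatic cancer line, had been grafted into the pancreas of male C57BL/6 mice (C57BL/6J in the methods) made obese by 24 weeks of high-fat diet. D-CAN, made of D-amino acids, joins a cyclic peptide that homes to adipose stromal cells to a peptide that triggers apoptosis, and it was injected under the skin on alternate days over 25 days at a dose of 30 mg/kg, with PBS as the vehicle. Both groups carried no transgene by their labels; the recorded age was 7 months in the labels and 12 months in the methods. Dissociated tumors of at least 3 mice were pooled by treatment, so each group was 1 single-cell library, no animal could be told from another, and no p-value can be given. A KPC tumor library of PBS-treated Pdgfrb-TK mice, which carry a thymidine kinase transgene driven by Pdgfrb but did not receive the prodrug, was gated in the same way and is set beside the results as a second untreated library.

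Cells with at least 200 genes detected were kept, which left 10178 cells of the D-CAN tumors and 11627 cells of the PBS tumors, or 21805 of the 44554 cells kept in all 4 libraries. Each cell was given a class from its markers: it had to carry unique molecular identifiers (UMIs, 1 per captured RNA molecule) of at least 3 markers of the class, and the runner-up class could score at most 0.8 of the leading one. The gate placed 7312 cells of the D-CAN tumors and 9431 cells of the PBS tumors in 9 classes, and 138 and 281 cells scored for more than 1 class and were set aside as mixed. Another 2728 cells (26.8%) of the D-CAN tumors and 1915 cells (16.5%) of the PBS tumors met no class. The ungated cells of the D-CAN tumors had a median of 54.4% of their UMIs from the mitochondrial genome against 13.5% in the PBS tumors. In both libraries each class carried more UMIs of its own markers than of the markers of any other class, which the gate itself brings about and which is no check of it. The median depth was 4514 UMIs per kept cell in the D-CAN tumors and 7421 UMIs in the PBS tumors, and the libraries shared 29 cell barcodes. Levels below are in CPM, the UMIs of a gene scaled to the total of all UMIs summed over the class, intervals are exact 95% intervals that cover counting error only, and ratios are log2 of (CPM + 1) in D-CAN tumors over PBS tumors. "At least 2-fold" describes these libraries and is not a call of change.

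The general functions of the immune and vessel classes of the tumor microenvironment are given here as background. CD8+ T cells kill cells that display foreign or mutated peptides on MHC class I, and they release interferon-gamma, which switches on guanylate-binding proteins, immunity-related GTPases, the antigen-processing genes and the T cell attractant Cxcl9. Conventional type 1 dendritic cells (cDC1) prime CD8+ T cells, macrophages and B cells present antigen on MHC class II, and neutrophils are short-lived phagocytes that release IL-1 and chemokines. Endothelial cells (ECs) line the vessels, admit leukocytes through selectins and ICAM/VCAM adhesion molecules, and are wrapped by contractile pericytes that share their basement membrane.

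Lymphocytes and dendritic cells were the classes with the largest excess in the D-CAN tumors. T cells were 540 of the kept cells, or 5.31% (4.88 to 5.76), in the D-CAN tumors, against 31 cells, or 0.267% (0.181 to 0.378), in the PBS tumors, a 19.9-fold higher share (13.9 to 29.6). That fold is a log2 ratio of 4.31, which was 3.09 with classes given by cluster, 5.29 with a stricter margin between classes and 5.20 with cells thinned to 1000 UMIs. B cells numbered 102 (1.0%) against 5 (0.0430%), a 23.3-fold higher share with a wide interval (9.67 to 73.3). Dendritic cells numbered 83 (0.815%) against 10 (0.0860%), a 9.48-fold higher share (4.91 to 20.5). The second untreated library lay near the PBS tumors for T cells and dendritic cells, with 10 and 6 cells, but held 50 B cells (0.478%), so that the B cell share in the D-CAN tumors was above it by a log2 ratio of 1.07 only, against 4.54 over the PBS tumors.

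Myeloid shares differed less. Neutrophils were 5.82% of the D-CAN library (592 cells) and 3.49% of the PBS library (406 cells), a fold of 1.67 (1.47 to 1.89). Macrophages were 9.51% (968 cells) against 7.80% (907 cells), a fold of 1.22 (1.11 to 1.34). Over the host cells that took a class, leaving the tumor cells out, the log2 ratio of the neutrophil share was 0.50 and that of the macrophage share 0.05, so the macrophage share of host cells was about equal in both libraries.

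The vessel classes were smaller in the D-CAN tumors than in the PBS tumors. ECs were 94 cells, or 0.924% (0.747 to 1.13), against 363 cells, or 3.12% (2.81 to 3.45), which made the share 3.38-fold lower (2.69 to 4.29). Pericytes were 38 cells (0.373%) against 104 cells (0.894%), a 2.40-fold lower share (1.64 to 3.57). These 2 differences depend on which untreated library is the reference. In the Pdgfrb-TK/PBS tumors ECs were 1.11% and pericytes 0.239% of the kept cells, so the D-CAN tumors lay close to that library for ECs, at a log2 ratio of -0.26, and above it for pericytes, at 0.64.

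Fibroblasts, the cancer-associated fibroblasts (CAFs) of the tumor, were 871 cells (8.56%) in the D-CAN tumors and 1369 cells (11.8%) in the PBS tumors, a fold of 0.727 (0.667 to 0.792). Tumor cells were 4024 (39.5%) against 6236 (53.6%), a fold of 0.737 (0.708 to 0.767). The untreated libraries themselves were far apart in both classes: the Pdgfrb-TK/PBS tumors held 71.1% tumor cells and 3.05% fibroblasts, and against that library the fibroblast share of the D-CAN tumors was higher, at a log2 ratio of 1.49.

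**Figure D1:**
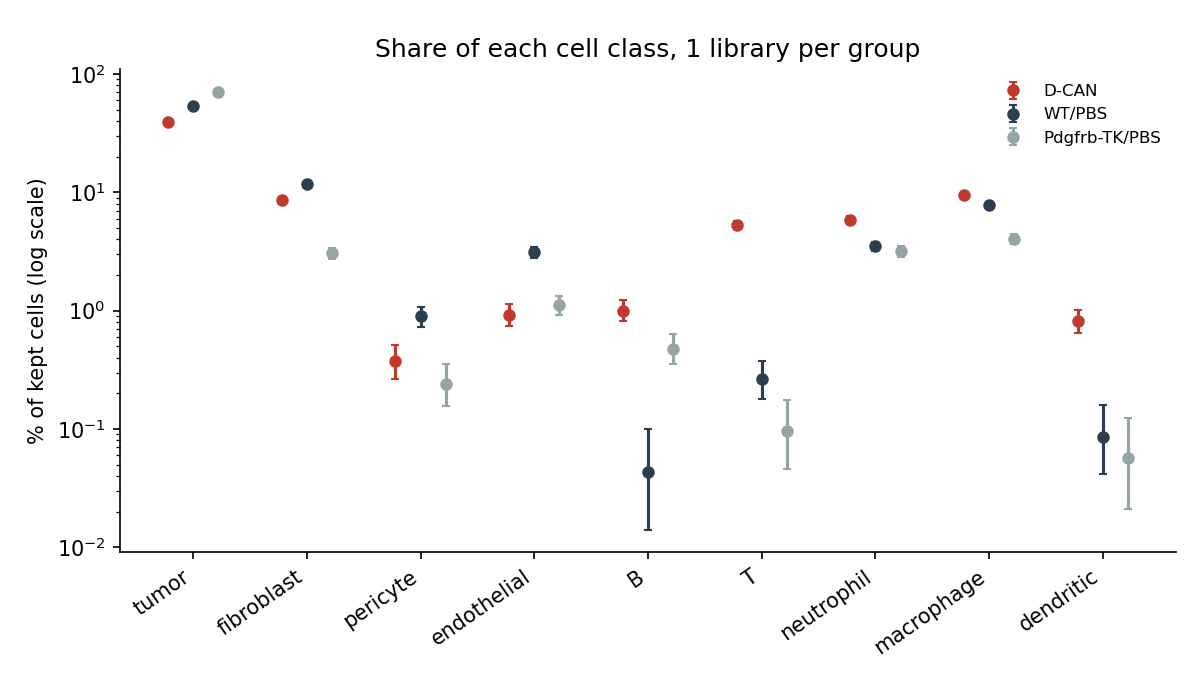
Share of the kept cells in each of 9 marker-gated classes, in percent on a log axis, for the D-CAN, WT/PBS and Pdgfrb-TK/PBS libraries, with exact 95% intervals for counting error. T cells and dendritic cells of the D-CAN tumors lie above both untreated libraries, ECs at 0.924% lie next to Pdgfrb-TK/PBS at 1.11%, and tumor cells are lowest in the D-CAN tumors at 39.5%.

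The expression comparison was made over all genes in the 5 classes with at least 50 cells in each library. In tumor cells 5.52% of 5724 genes with a mean of at least 25 CPM were at least 2-fold higher in the D-CAN tumors and 1.80% at least 2-fold lower. In fibroblasts these shares were 9.31% and 6.28% of 5776 genes, and in ECs 10.7% and 3.84% of 6040 genes. Among neutrophil genes 12.5% were higher and 10.2% lower of 5164, and among macrophage genes 8.55% and 4.12% of 5321. The untreated libraries differed from each other on a like scale: Pdgfrb-TK/PBS against WT/PBS gave 3.02% higher and 3.09% lower in tumor cells, 7.45% and 9.69% in ECs, 6.10% and 16.0% in neutrophils and 7.18% and 8.25% in macrophages. Both comparisons share the WT/PBS library, so each gene's ratio in the second comparison is given beside the first as a measure of how far untreated libraries lay apart, and no agreement between them is drawn. By any margin, the tested genes higher in the D-CAN tumors than in the PBS tumors were 3353 in tumor cells, 3085 in fibroblasts and 3521 in ECs. They were 2612 in neutrophils and 3102 in macrophages, and counts of higher list members below are to be read beside these.

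Genes induced by interferon-gamma and the genes of MHC class I were higher in sum in the D-CAN tumors than in both untreated libraries in each of the 5 compared classes: tumor cells, fibroblasts, ECs, neutrophils and macrophages. A list of 10 interferon-induced GTPases (Gbp2 to Gbp7, Igtp, Irgm1, Irgm2 and Iigp1), which attack the vacuoles of intracellular pathogens, summed to 420 CPM in tumor cells of the D-CAN tumors against 14.3 CPM in the PBS tumors and 22.5 CPM in the Pdgfrb-TK/PBS tumors. The sums were 1194 against 285 and 126 CPM in ECs, 598 against 193 and 237 CPM in macrophages, 502 against 42.5 and 106 CPM in neutrophils, and 374 against 109 and 187 CPM in fibroblasts. All 10 genes were higher in the D-CAN tumors in tumor cells, ECs, neutrophils and macrophages, and 9 of 10 were in fibroblasts. On the longer list of 19 interferon-induced genes, 18 were higher in tumor cells, 14 in fibroblasts, 15 in ECs, 19 in neutrophils and 14 in macrophages, and 5, 7, 15, 9 and 14 of the 19 passed the filter of a mean of at least 25 CPM and at least 50 UMIs. Of the 10 GTPases 3, 2, 10, 4 and 7 passed it in the same order of classes, and members that did not pass can rest on a few UMIs. A gene can pass that filter on its level in the D-CAN tumors alone. The Gbp genes and the H2 genes named below are families of close copies, so reads may be split among their members by the counting.

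Iigp1, an immunity-related GTPase, gave the widest gap of the tumor cell genes. In tumor cells it was at 139 CPM (137 to 142) in the D-CAN tumors and 0.316 CPM (0.224 to 0.434) in the PBS tumors, a log2 ratio of 6.74, against 0.31 between the untreated libraries. With each cell thinned to 1000 UMIs, which removes the difference in depth, 6.55% of tumor cells of the D-CAN tumors and 0.0341% of those of the PBS tumors held an Iigp1 UMI. The thinned shares were 21.1% against 2.27% of ECs, 11.1% against 1.03% of fibroblasts and 8.04% against 0.559% of macrophages. Among neutrophils it was 1.62% against 0.259%, so the Iigp1 signal was not spread evenly over the classes of the library. Unthinned, the shares were 21.7% against 0.337% of tumor cells and 47 of 94 against 31 of 363 ECs.

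The antiviral genes Ifit1, Ifit2, Ifit3 and Rsad2, which respond above all to type I interferon, did not follow the GTPases in every class. Against the PBS tumors their sum was lower in ECs, macrophages and fibroblasts and higher in tumor cells and neutrophils. They summed to 40.6 CPM in ECs of the D-CAN tumors against 276 CPM in the PBS tumors and 34.5 CPM in the Pdgfrb-TK/PBS tumors, and to 94.0 against 519 and 117 CPM in macrophages. In tumor cells the sums were 29.2 against 13.9 and 25.5 CPM, in fibroblasts 41.7 against 69.1 and 99.4 CPM and in neutrophils 158 against 56.0 and 439 CPM. In ECs and macrophages the D-CAN tumors thus lay near the Pdgfrb-TK/PBS tumors, and in neutrophils between the untreated libraries. Rsad2, which blocks viral replication, was at 55.8 CPM (49.9 to 62.1) in macrophages of the D-CAN tumors and 376 CPM (361 to 391) in those of the PBS tumors, while the Pdgfrb-TK/PBS tumors had 56.0 CPM. For this gene in macrophages it was thus the WT/PBS library that stood apart. In ECs only 3 UMIs of Rsad2 were counted in the D-CAN tumors (3.80 CPM, 0.784 to 11.1), against 181 CPM in the PBS tumors and 23 CPM in the Pdgfrb-TK/PBS tumors. The split of the list into GTPases and Ifit/Rsad2 genes was made after the values were seen.

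The promoters of these genes show the sequence features through which interferons act. These are GAS elements (here searched as TTCNNNGAA), which serve interferon-gamma above all, and the ISRE (here GAAANNGAAA), which serves type I interferon above all, each searched on both strands in the 250 bases before the annotated start in RefSeq on GRCm38.p6. Over 27025 promoters, 3.46% held an ISRE-type match and 8.13% a GAS-type match. Of the GTPases 7 of 10 had a promoter in the table, and 7 held an ISRE-type and 4 a GAS-type match; of the 4 Ifit and Rsad2 genes, 3 held an ISRE-type and 1 a GAS-type match. Both groups therefore carried ISRE-type letters far above the share of all promoters, and this window did not separate them. In the MHC class I list 9 of 11 promoters were found, 2 with an ISRE-type and 1 with a GAS-type match, and in the MHC class II list 4 of 7 were found with no match of either kind. The 4 promoters below stand for the 2 groups whose levels differed in opposite directions in ECs and macrophages, Gbp2 and Igtp for the GTPases and Ifit1 and Rsad2 for the antiviral genes, each written 5′ to 3′ toward the start with the motif letters in capitals. Gbp2 lies at chr3:142620413-142620662 on the plus strand with an ISRE-type match read on the opposite strand, Igtp at chr11:58199306-58199555 on the plus strand with a GAS-type match followed by an ISRE-type match, Ifit1 at chr19:34640639-34640888 on the plus strand with a pair of ISRE-type matches on the opposite strand, and Rsad2 at chr12:26456453-26456702 on the minus strand with an ISRE-type match on the opposite strand.
Gbp2: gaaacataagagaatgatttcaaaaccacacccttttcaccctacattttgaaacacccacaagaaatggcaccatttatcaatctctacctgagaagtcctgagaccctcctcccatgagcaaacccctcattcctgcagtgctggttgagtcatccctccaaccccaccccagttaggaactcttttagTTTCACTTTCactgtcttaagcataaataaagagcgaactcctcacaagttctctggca
Igtp: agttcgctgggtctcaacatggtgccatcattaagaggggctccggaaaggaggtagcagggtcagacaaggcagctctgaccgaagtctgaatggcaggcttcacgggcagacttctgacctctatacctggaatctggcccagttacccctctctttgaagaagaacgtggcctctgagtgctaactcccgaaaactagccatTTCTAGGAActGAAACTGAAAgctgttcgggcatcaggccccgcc
Ifit1: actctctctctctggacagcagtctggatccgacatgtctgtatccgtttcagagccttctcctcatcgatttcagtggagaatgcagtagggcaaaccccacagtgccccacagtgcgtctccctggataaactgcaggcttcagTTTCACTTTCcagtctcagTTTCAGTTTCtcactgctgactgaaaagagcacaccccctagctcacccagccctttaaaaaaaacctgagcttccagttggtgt
Rsad2: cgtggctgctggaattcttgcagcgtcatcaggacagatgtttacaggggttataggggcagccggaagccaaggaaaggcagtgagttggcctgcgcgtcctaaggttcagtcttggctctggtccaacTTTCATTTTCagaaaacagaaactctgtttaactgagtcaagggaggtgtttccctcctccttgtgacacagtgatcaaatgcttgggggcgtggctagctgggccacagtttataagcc

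The transcription factor Irf1, which interferon-gamma induces early, was at 72.1 CPM against 20.8 CPM in tumor cells, a log2 ratio of 1.74, with -0.19 between the untreated libraries. Irf1 was at 248 against 56.0 CPM in neutrophils (2.13) and at 160 against 48.5 CPM in macrophages (1.70). In ECs it was at 138 against 76.1 CPM (0.85) and in fibroblasts at 67.1 against 55.9 CPM (0.26), so the gap was wide in tumor cells, neutrophils and macrophages and narrow in fibroblasts. The log2 ratios of Irf1 between the untreated libraries were 0.82 in neutrophils, -0.65 in macrophages, -1.12 in ECs and -1.24 in fibroblasts.

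All 11 MHC class I genes were higher in the D-CAN tumors than in the PBS tumors in each of these 5 classes. Their sum in tumor cells was 2199 CPM against 422 CPM in the PBS tumors and 407 CPM in the Pdgfrb-TK/PBS tumors. The median log2 ratio over those that passed the filter was 1.90 in tumor cells (5 genes), 1.32 in fibroblasts (6 genes), 1.41 in ECs (11 genes), 1.23 in neutrophils (10 genes) and 1.08 in macrophages (11 genes). The medians over all tested genes of these classes lay between 0.02 and 0.13, and the MHC class I medians between the untreated libraries were -0.07 in tumor cells, -0.19 in ECs and 0.05 in macrophages. In ECs 10 of these 11 genes were at least 2-fold higher, against 10.7% of all tested genes. H2-K1, a classical class I heavy chain, was at 423 CPM (419 to 427) against 40.3 CPM (39.1 to 41.4) in tumor cells, and B2m, the light chain of all class I molecules, at 939 against 169 CPM. These class I genes of tumor cells were thus at several times the level of the PBS tumors, with log2 ratios of 3.36 and 2.47. Thinned to 1000 UMIs, 27.4% of tumor cells of the D-CAN tumors and 3.92% of those of the PBS tumors held an H2-K1 UMI. In ECs Psmb9, an immunoproteasome subunit, was at 90.0 against 7.99 CPM (3.34), Nlrc5, the transactivator of class I genes, at 68.5 against 12.9 CPM (2.32) and H2-K1 at 777 against 337 CPM (1.20).

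**Figure D2:**
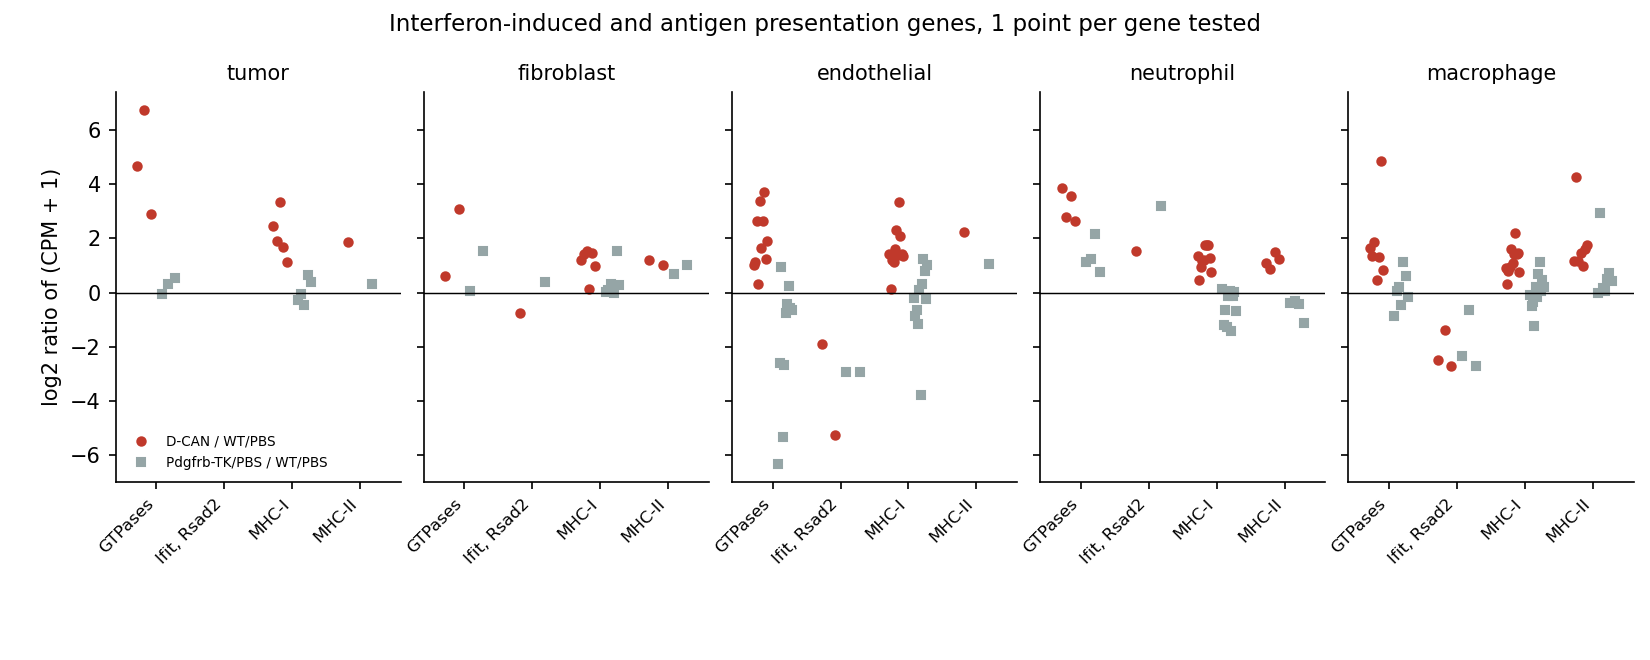
Log2 ratio of (CPM + 1) for each tested gene of 4 groups (interferon-induced GTPases, Ifit and Rsad2 genes, MHC class I, MHC class II) in 5 cell classes; circles are D-CAN over WT/PBS, squares Pdgfrb-TK/PBS over WT/PBS, and each point is 1 gene, with a gene at 0 in a library entering as 0 CPM plus the pseudocount of 1. MHC class I circles lie above 0 in all 5 classes, while the Ifit and Rsad2 circles lie below 0 in ECs and macrophages.

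The T cells of the D-CAN tumors were led by CD8 and cytotoxic genes, which were not among the markers of the T cell gate. With only 31 T cells in the PBS tumors, values are given with counting intervals and no ratios. Cd8a, the co-receptor for MHC class I, was at 344 CPM (322 to 368) in T cells of the D-CAN tumors and 54.1 CPM (19.9 to 118) in those of the PBS tumors. Nkg7, a component of cytotoxic granules, was at 1218 against 117 CPM, and Prf1, the pore-forming perforin, at 131 CPM against 9.02 CPM (0.228 to 50.2). Ifng, which encodes interferon-gamma, was at 201 CPM (184 to 219, 507 UMIs in 122 cells) against 18 CPM (2.18 to 65.1, 2 UMIs). These intervals cover counting error only, not differences among cells or animals, and the Ifng value of the PBS tumors rests on 2 UMIs. Summed over 14 CD8 and cytotoxic genes the level was 4525 against 1677 CPM, while 10 CD4 and regulatory genes summed to 2241 against 1893 CPM. The 10 T cells of the Pdgfrb-TK/PBS tumors had no Cd8a UMI, which allows up to 171 CPM, but gave 3762 CPM (2988 to 4676) for the CD8 and cytotoxic list, so the level of that list per T cell differed between the untreated libraries.

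By cells, 48.9% (44.6 to 53.2) of T cells of the D-CAN tumors held a UMI of Cd8a or Cd8b1, against 16.1% (5.45 to 33.7) in the PBS tumors, and 31.1% against 9.68% after thinning to 1000 UMIs. In tumor cells of the D-CAN library, which should lack these genes, the shares were 1.09% and 0.152%, at a median depth of 19044 UMIs against 3762 UMIs in T cells. Cd4 UMIs were in 19.6% of T cells (16.4 to 23.2) against 12.9% (3.63 to 29.8), and Foxp3, the factor of regulatory T cells, in 7.78% against 9.68% (2.04 to 25.8). The last 2 pairs of intervals overlap, and with so few T cells in the PBS tumors a difference in CD4 or regulatory T cells could not be judged. Only 1.30% of T cells in the D-CAN tumors held both CD8 and Cd4 UMIs, and 32.8% held neither. Ncr1, a receptor of NK cells, was in 0.556% of the gated T cells.

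Checkpoint receptors did not separate the T cells of the libraries as a group. Pdcd1, the gene of PD-1, was at 238 against 198 CPM and was in 44.6% against 41.9% of T cells, and Tox, a factor of exhausted T cells, was at 1244 against 938 CPM. Lag3 was at 106 CPM against no UMI in the PBS tumors, which allows up to 33.3 CPM, and Cd160 at 72.6 CPM against none. Gzmb, a granule protease, was at 173 against 45.1 CPM and in 20.4% of T cells against 6.45% (0.791 to 21.4). The lymph-node homing and naive T cell list summed to 1301 against 1163 CPM, and Mki67, a proliferation gene, was in 19.1% against 19.4% of T cells.

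The dendritic cells of the D-CAN tumors had a higher level of cDC1 genes, by genes outside the gate. Summed over 8 cDC1 genes their level was 4833 CPM (4660 to 5010) against 510 CPM (372 to 682) in the 10 dendritic cells of the PBS tumors. Irf8, the factor that specifies cDC1, was at 1013 against 147 CPM, Wdfy4, which they need for cross-presentation, at 1066 CPM against 34.0 CPM (7.01 to 99.4), and the adhesion molecule Cadm1 at 423 CPM against 11.3 CPM (0.287 to 63.2). The 6 dendritic cells of the Pdgfrb-TK/PBS tumors summed to 3746 CPM (2752 to 4981) over the cDC1 list, so the low value was that of the PBS tumors. The migratory and regulatory list went the other way in sum, with 1825 CPM against 3389 CPM, and so did cDC2 genes, with 587 against 861 CPM. Members of both lists were split. Of the cDC2 genes only Tnip3 (141 against 385 CPM), Mgl2 and Sirpa were lower, and the others were higher. Of the migratory and regulatory genes Fscn1 (285 against 56.7 CPM), Il12b and Tnfrsf4 were higher, and the others were lower. Ccl17, a chemokine for regulatory and helper T cells, was at 244 against 986 CPM and Ccl22 at 318 against 487 CPM. Among the gate's own markers, Clec9a and Xcr1 of cDC1 were at 364 and 266 CPM against 68.0 and 34.0 CPM, and Ccr7, which guides dendritic cells to lymph nodes, at 379 against 1315 CPM. The interferon list in sum went against the larger classes here, with 682 CPM (618 to 751) in the D-CAN tumors against 2369 CPM (2059 to 2713) in the 10 cells of the PBS tumors and 558 CPM (224 to 1149) in the 6 cells of the Pdgfrb-TK/PBS tumors. Gbp2 was at 34.4 against 170 CPM, but 2 cells of the PBS tumors held all of its UMIs there. Irf1, at 143 against 11.3 CPM, and Iigp1, at 32.8 CPM against no UMI, were higher. The other members were lower or had no UMI in either library. MHC class I genes of dendritic cells summed to 6441 against 3638 CPM.

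**Figure D3:**
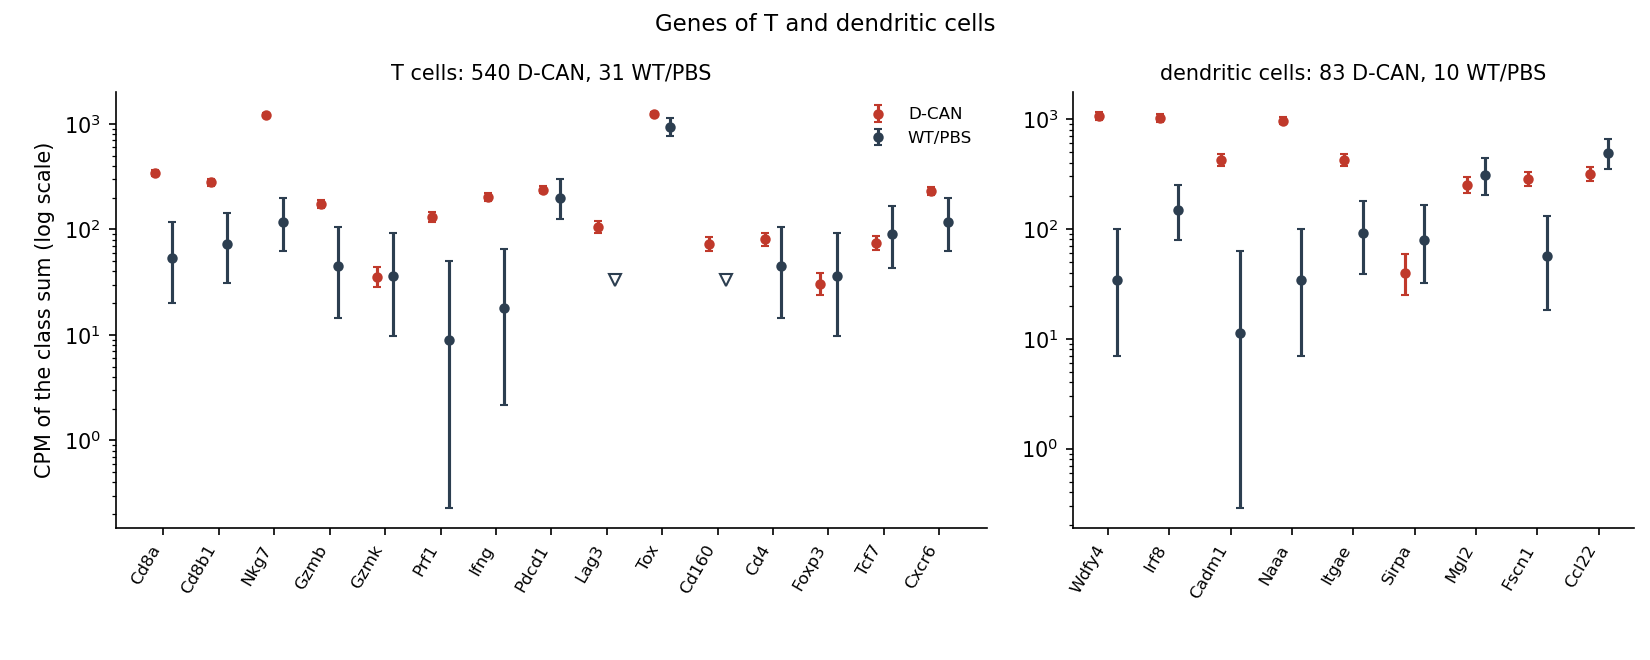
CPM of the class sum on a log axis, with exact 95% counting intervals, for genes of T cells (540 cells in D-CAN, 31 in WT/PBS) and dendritic cells (83 and 10 cells); downward triangles mark genes with no UMI, at the upper limit that a count of 0 allows. Ifng, Cd8a and Nkg7 lie higher in D-CAN, as do Wdfy4, Irf8 and Cadm1, while Ccl22 lies higher in WT/PBS at 487 CPM.

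The 102 B cells of the D-CAN tumors carried genes of follicular B cells. These 8 genes summed to 8900 CPM, but Cd74, which is also on the MHC class II list, made 6571 CPM of it and Ighm 1145 CPM. Ighd, the IgD heavy chain of naive B cells, was at 404 CPM, the IgE receptor Fcer2a at 220 CPM and the complement receptor Cr2 at 184 CPM. The plasma cell list summed to 536 CPM. The 5 B cells of the PBS tumors gave 5218 CPM for the follicular list, of which Cd74 made 3184 CPM. They gave 177 CPM (21.4 to 639) for the plasma list, too few cells for a comparison. MHC class I genes of B cells summed to 3459 CPM (3262 to 3665) against 4775 CPM (3587 to 6231) in those 5 cells, with H2-D1 at 654 CPM (570 to 747) against 1769 CPM (1080 to 2732). The 50 B cells of the Pdgfrb-TK/PBS tumors gave 1824 CPM (1497 to 2203) for the same list, so the direction turned with the untreated library. RNA of pancreatic acinar cells was high in this class: Ctrb1, a chymotrypsinogen, was at 3643 CPM in the B cells of the D-CAN tumors, and the 8 acinar genes together at 6225 CPM. All UMIs of Ctrb1 were in 8 of the 102 cells and those of Prss2, a trypsinogen, in 5, so a few cells carried the level of the class. The same 8 genes summed to 431 CPM in T cells and to between 72.3 and 274 CPM in the 5 compared classes of the D-CAN tumors, against 1.14 to 27.3 CPM in those of the PBS tumors. Acinar RNA was thus higher in every class of the D-CAN library, and its part in the results was not tested.

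Macrophages of the D-CAN tumors carried more MHC class II and the T cell attractant Cxcl9, and less of the neutrophil attractants. Cxcl9, the ligand of CXCR3 on T cells, was at 412 CPM (396 to 429) against 2.05 CPM (1.12 to 3.44), a log2 ratio of 7.08, and was found in 241 of 968 macrophages against 9 of 907. Between the untreated libraries its ratio was -0.29. Cxcl10, a second ligand of the same receptor, was at 182 against 154 CPM, so the ratios of these CXCR3 ligands were far apart. Among the 10 macrophage genes named for the largest ratios, Cxcl9 came before all others.

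All 7 MHC class II genes were higher, 6 of them at least 2-fold against 8.55% of all tested genes, with a median log2 ratio of 1.45 and a summed level of 20195 against 8225 CPM. Ciita, the master transactivator of class II, was at 140 against 6.45 CPM (4.25), H2-Eb1 at 3279 against 966 CPM (1.76) and Cd74, the invariant chain, at 9227 against 4151 CPM (1.15). Ciita also differed between the untreated libraries, by 2.93, while the class II list as a whole had a median of 0.43 there. The costimulatory ligand Cd80 was at 124 against 61.0 CPM (1.01) and Cd86 at 414 against 318 CPM (0.38).

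Of the 14 chemokines, 5 were higher and 9 lower, and 3 and 6 of these by at least 2-fold, against 8.55% and 4.12% of all tested genes. Cxcl1 and Cxcl2, which draw neutrophils through CXCR2, were at 145 against 698 CPM (-2.26) and at 2176 against 5289 CPM (-1.28). Ccl12, a ligand of CCR2 on monocytes, was at 269 against 40.9 CPM (2.69) and Ccl24, a chemokine for eosinophils, at 263 against 60.9 CPM (2.09). All 4 differences also stood between the untreated libraries, at -4.19, -2.49, 2.76 and 3.20, so the D-CAN and Pdgfrb-TK/PBS tumors lay on the same side of the PBS tumors. Against Pdgfrb-TK/PBS the ratios of Cxcl1 and Cxcl2 were 1.93 and 1.21, and those of Ccl12 and Ccl24 were -0.08 and -1.11.

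Among monocyte genes 7 were higher and 2 lower with a median of 0.46, against 1.08 between the untreated libraries. The 10 genes summed to 2950 CPM, between 2368 CPM in the PBS tumors and 4862 CPM in the Pdgfrb-TK/PBS tumors. Ccr2, the receptor by which monocytes leave the marrow, was at 276 against 43.1 CPM (2.65), with 301 CPM in the Pdgfrb-TK/PBS tumors. Ms4a4c was at 69.1 against 4.25 CPM (3.74), with 26.9 CPM in the Pdgfrb-TK/PBS tumors. The list of inflammatory genes had a median of -0.63, that of alternative activation -0.53 and that of lipid and scar-associated genes -0.59. Between the untreated libraries these medians were -1.20, 0.68 and -0.05. Il10, the anti-inflammatory cytokine, was at 29.2 against 144 CPM (-2.26), a direction that turned to 1.97 against the Pdgfrb-TK/PBS tumors, and the lectin Mgl2 was at 238 against 34.9 CPM (2.73), so genes often grouped as alternative activation went both ways. Gpnmb, a gene of lipid-laden macrophages, was at 30.9 against 148 CPM (-2.22), while Trem2 and Apoe of the same list had log2 ratios of -0.07 and 0.02. The macrophages of the libraries fell mostly into different clusters of the unsupervised clustering: cluster 0 held 70.7% of those of the D-CAN tumors and 14.8% of those of the PBS tumors, and cluster 1 held 18% and 79.2%.

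ECs of the D-CAN tumors had less RNA of capillary genes and of some leukocyte adhesion genes that inflammation switches on, and more of lymphatic genes. The class rests on 94 cells against 363, and nearly all of them (98.9% and 100%) came from 1 cluster. Of the 8 capillary genes 1 was higher and 7 were lower, with a median of -0.81 over the 6 that passed the filter. Cd36, a fatty acid transporter, was at 72.3 CPM (54.7 to 93.6) against 326 CPM (305 to 349), a ratio of -2.16, Cd300lg at 54.5 against 175 CPM (-1.67) and Gpihbp1, which holds lipoprotein lipase on the capillary wall, at 287 against 567 CPM (-0.98). The Pdgfrb-TK/PBS tumors went the other way from the PBS tumors, with ratios of 1.07, 0.70 and 1.07, so for these 3 genes the D-CAN tumors were lowest of the 3 libraries. Fabp4, the fatty acid chaperone of the same cells, was at 1457 against 2270 CPM, with 5149 CPM in the Pdgfrb-TK/PBS tumors.

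In the adhesion list 4 of 9 tested genes were higher and 5 lower, 4 of the latter at least 2-fold against 3.84% of all tested genes. Icam1, the ligand of leukocyte integrins, was at 81.2 CPM (62.5 to 104) against 422 CPM (397 to 447), a ratio of -2.36. Sele, the selectin of inflamed endothelium, was at 22.8 against 125 CPM (-2.40) and Vcam1 at 36.8 against 97.8 CPM (-1.39). These cytokine-induced genes were lower still in the Pdgfrb-TK/PBS tumors, with Icam1 at 23 CPM, Vcam1 at 20.1 CPM and Sele listed at 0. The constitutive members Icam2, Cd34 and Podxl had log2 ratios of 0.70, 0.11 and 0.43. Genes with the same pattern outside the list were the chemokine Ccl2, at 40.6 against 513 CPM (-3.63) with 2.87 CPM in the Pdgfrb-TK/PBS tumors, and the growth factor gene Csf3, with 1 UMI (1.27 CPM, 0.0321 to 7.06) against 102 CPM.

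Growth factor receptors of the vessel wall differed little. Of 11 VEGF and angiopoietin receptors and partners 9 were higher and 2 lower, with a median of 0.29 against 0.13 over all tested genes. Kdr, the main VEGF receptor, was at 420 CPM (376 to 467) against 371 CPM (348 to 395), Flt1, the decoy receptor, at 1007 against 1432 CPM (-0.51) and Flt4, the receptor of VEGF-C, at 406 against 161 CPM (1.33). Of 10 tip cell genes, which mark sprouting endothelium, 7 were higher, beside 3521 of 6040 among all tested EC genes, and 2 were at least 2-fold higher. Apln was at 203 against 7.61 CPM (4.57) and Esm1 at 309 against 118 CPM (1.39), but both were as high in the Pdgfrb-TK/PBS tumors, at 193 and 250 CPM. Emcn, a sialomucin of veins and capillaries, was at 544 CPM (494 to 598) against 891 CPM (856 to 928), a ratio of -0.71, with 831 CPM in the Pdgfrb-TK/PBS tumors. The medians of junction genes (-0.03), arterial genes (-0.07), venous genes (0.20) and basement membrane genes (0.21) lay near that of all genes.

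All 5 measured lymphatic genes were higher. Prox1, the factor that specifies lymphatic endothelium, was at 387 CPM (345 to 433) against 68.5 CPM (58.8 to 79.3), a ratio of 2.48, Mmrn1 at 877 against 206 CPM (2.08) and the hyaluronan receptor Lyve1 at 507 against 170 CPM (1.57). The mix of cells in the class differed as well: 29 of the 94 ECs of the D-CAN tumors (30.9%, 21.7 to 41.2) and 54 of the 363 ECs of the PBS tumors (14.9%, 11.4 to 19.0) held UMIs of at least 2 lymphatic genes. In the Pdgfrb-TK/PBS tumors these were 4 of 116 ECs (3.45%, 0.947 to 8.59). As a share of all kept cells, ECs with lymphatic genes were 0.613-fold (0.377 to 0.981) those of the PBS tumors and the other ECs, 65 against 309 cells, were 4.16-fold lower (3.18 to 5.53). ECs with lymphatic genes were 0.285% of the kept cells in the D-CAN tumors, 0.464% in the PBS tumors and 0.0382% in the Pdgfrb-TK/PBS tumors, so the direction turned with the untreated library. The ECs without lymphatic genes therefore had the wider gap in share to the PBS tumors, at a median depth of all ECs of 7390 UMIs against 5002 UMIs. Without the lymphatic cells the ratios of Cd36, Icam1, Sele and Iigp1 were -1.82, -2.21, -2.20 and 3.40, and that of Flt4 was 0.05. Selp, another selectin of the adhesion list, had a ratio of 0.22 there, so it was not lower with Icam1 and Sele.

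Cxcl9 was also found in ECs, at 205 CPM (175 to 240) against 1.14 CPM (3 UMIs), but in only 8 cells against 2, and Acta2, a smooth muscle actin, was at 401 against 10.3 CPM in 8 cells against 22. Both values thus came from a few of the 94 cells.

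**Figure D4:**
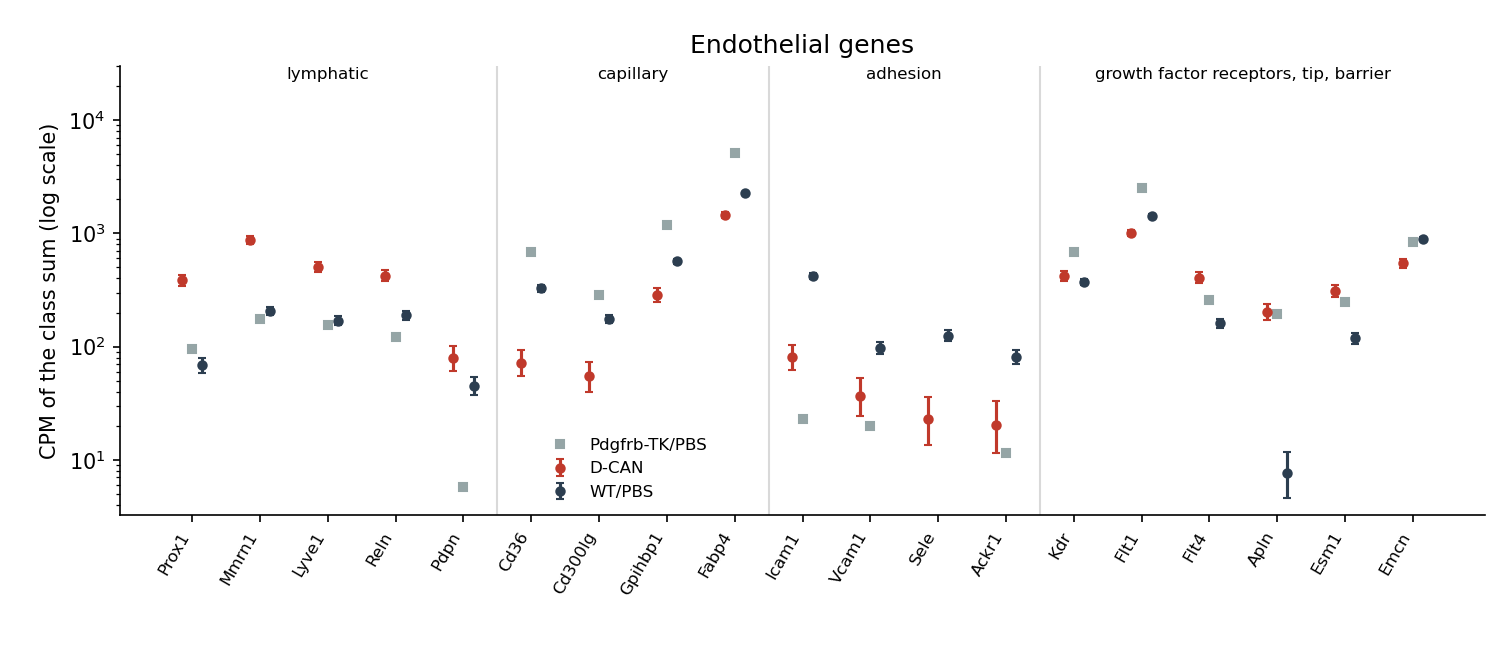
CPM of endothelial genes on a log axis in 94 D-CAN and 363 WT/PBS cells, with exact 95% counting intervals, and in Pdgfrb-TK/PBS cells (squares; genes listed at 0 there are left out). Cd36, Icam1 and Sele lie lower in D-CAN than in WT/PBS, Prox1 and Lyve1 higher, and Kdr nearly level at 420 and 371 CPM.

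Cells gated as pericytes in the D-CAN tumors, 38 against 104, had more RNA of the contractile genes. The gate had no class for smooth muscle cells, and the mix of cells in the pericyte class was not tested. These 10 genes summed to 13292 CPM (12923 to 13669) against 4382 CPM (4215 to 4554), and to 4933 CPM in the 25 pericytes of the Pdgfrb-TK/PBS tumors, with Acta2 at 3447 against 1125 CPM and Tagln, an actin-binding protein of smooth muscle, at 3061 against 851 CPM. Genes of the basement membrane they share with ECs summed to 14537 against 12916 CPM and the vessel support list to 2567 against 2291 CPM. Pdgfrb, the receptor that recruits pericytes to vessels, was at 913 against 731 CPM, and Ednrb, an endothelin receptor, at 384 against 701 CPM. MHC class I genes summed to 2388 against 1166 CPM and the interferon list to 851 against 238 CPM, the direction seen in the larger classes. Heat shock and early response genes, which cells switch on when tissue is taken apart, summed to 2996 against 13489 CPM in the same pericytes.

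Neutrophils of the D-CAN tumors carried more cytokine and maturation genes and less of most granule genes made during their development in the marrow. Of 10 granule genes 7 were lower and 3 higher, 4 and 1 of these by at least 2-fold, against 10.2% and 12.5% of all tested genes. The higher ones were Mmp9 (2.33), Cd177 (0.23) and Mmp8 (0.10). Mpo, the myeloperoxidase of primary granules, had no UMI in 592 neutrophils of the D-CAN tumors, which allows up to 2.38 CPM, against 174 CPM in 17 of 406 neutrophils of the PBS tumors. Elane, neutrophil elastase, was at 4.53 CPM in 1 cell against 309 CPM in 18 cells. Of the secondary granule genes Ngp was at 2177 against 5895 CPM (-1.44) and Camp at 2461 against 4629 CPM (-0.91), while Ltf was at 749 against 765 CPM. Chil3 was at 349 against 2027 CPM (-2.53). The Pdgfrb-TK/PBS tumors were likewise low in these genes, with Mpo and Elane listed at 0 and a median of -1.61 over the granule list, against -0.95 in the D-CAN tumors.

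Of 11 cytokine and chemokine genes 10 were higher, 5 of them at least 2-fold against 12.5% of all tested genes. Il1b was at 4073 CPM (3973 to 4175) against 1069 CPM (1015 to 1124), a ratio of 1.93, Osm, a cytokine of the IL-6 family, at 160 against 34.0 CPM (2.20) and Ccl3, the exception, at 1660 against 2518 CPM. The level of Il1b was higher again in the Pdgfrb-TK/PBS tumors, at 7900 CPM, as was that of Osm, at 486 CPM. Genes that set the D-CAN tumors apart from both untreated libraries were Cd101, a marker of mature neutrophils, at 127 against 7.09 and 27.8 CPM (3.98), Mmp9, the gelatinase of tertiary granules, at 679 against 134 and 176 CPM (2.33), and Gbp2, at 159 against 9.92 and 23.1 CPM (3.87). Siglecf, found on long-lived neutrophils in tumors, was at 83.4 against 9.21 CPM (3.05), with 41.6 CPM in the Pdgfrb-TK/PBS tumors. Ribosomal protein genes were lower in 84 of 88 cases, with a median of -1.20. Their medians were also negative in tumor cells (-0.20), fibroblasts (-0.39), ECs (-0.63) and macrophages (-0.56). Hspa1a, a heat shock gene, was at 4312 against 1578 CPM in neutrophils. The part of these general differences in the genes named above was not tested.

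**Figure D5:**
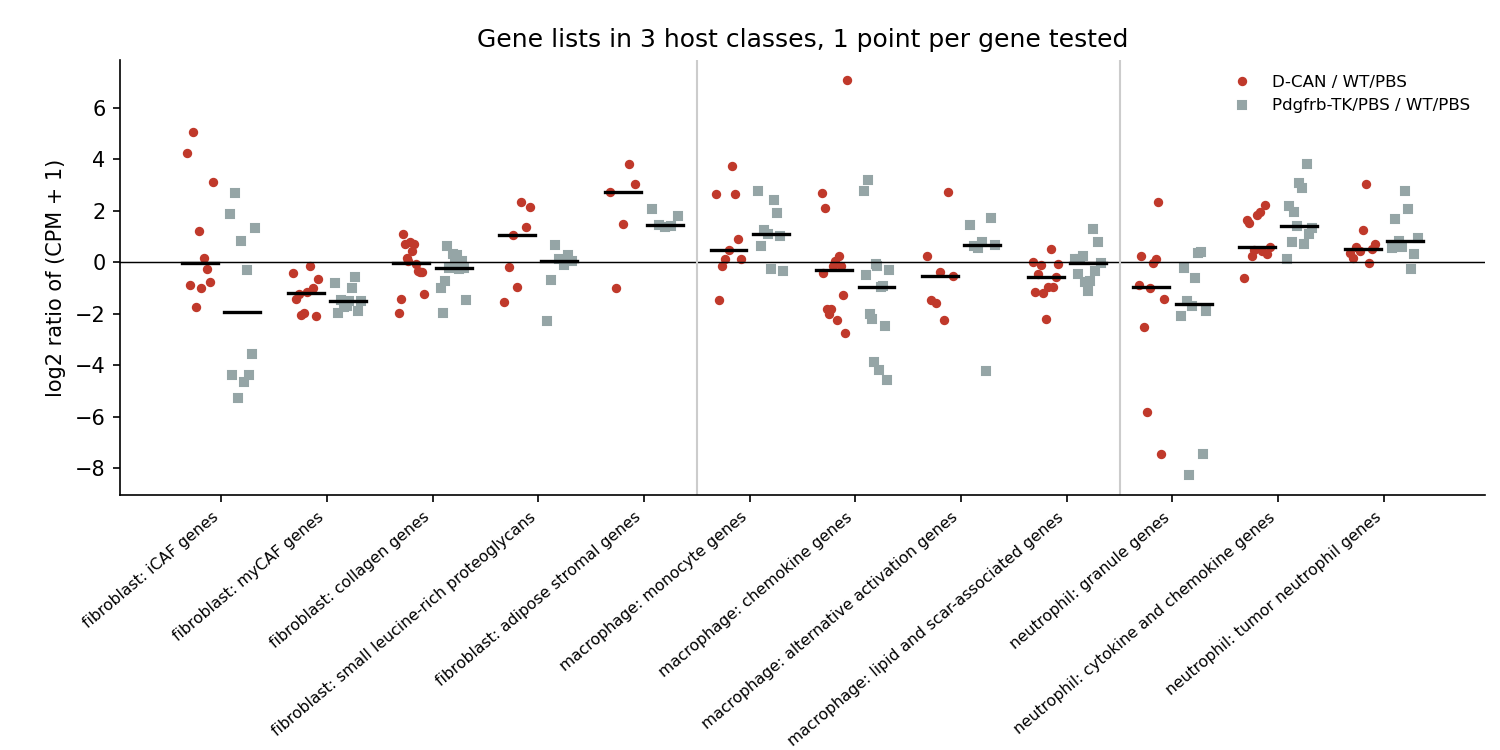
Log2 ratio of (CPM + 1) for the tested genes of lists in 3 host classes; circles are D-CAN over WT/PBS, squares Pdgfrb-TK/PBS over WT/PBS, and black bars are medians; a gene at 0 in a library enters as 0 CPM plus the pseudocount of 1. Adipose stromal genes of fibroblasts have the highest median of these lists in D-CAN, 2.74 over the 5 genes tested, which can pass the filter on their D-CAN level alone. The myCAF genes lie below 0 in D-CAN with a median of -1.22, and granule genes of neutrophils lie mostly below 0 in both comparisons.

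CAFs of the D-CAN tumors carried more RNA of most adipose stromal genes and less of the myofibroblast genes. All 10 myofibroblastic CAF (myCAF) genes were lower, 7 of them at least 2-fold against 6.28% of all tested genes, with a median of -1.22. Thbs2, a matricellular protein, was at 225 against 953 CPM (-2.08), Cthrc1, a collagen-bundle protein, at 92.9 against 387 CPM (-2.05) and Postn at 632 against 1436 CPM (-1.18), whereas Acta2 was at 626 against 832 CPM (-0.41). The Pdgfrb-TK/PBS tumors were as low, with a list median of -1.53, and against them the median of the D-CAN tumors was 0.28. Of 6 antigen-presenting CAF (apCAF) genes 4 passed the filter, 3 at least 2-fold higher and 1 at least 2-fold lower, with a median of 1.11. All 6 summed to 1120 CPM in the D-CAN tumors against 369 CPM in the PBS tumors and 2668 CPM in the Pdgfrb-TK/PBS tumors. The inflammatory CAF (iCAF) list split: C3, the central complement component, was at 5067 against 266 CPM (4.25), Clec3b at 268 against 7.10 CPM (5.05) and Cxcl12 at 306 against 132 CPM (1.21), but Cxcl1 was at 315 against 1056 CPM (-1.74) and Il6 at 247 against 299 CPM (-0.27). The iCAF list had a median of -0.06, and of -1.93 between the untreated libraries. In the Pdgfrb-TK/PBS tumors C3 was at 961 CPM and Clec3b at 51.6 CPM, and against that library the ratio of Cxcl1 turned to 3.53.

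D-CAN was built to reach adipose stromal cells. Of 10 adipose stromal genes 7 were higher and 3 lower in the CAFs of the D-CAN tumors, and the 5 that passed the filter had a median of 2.74. That filter can be passed on the level in the D-CAN tumors alone, as Cd34 did, so this median can lean upward. All 10 genes summed to 1700 CPM against 390 CPM in the PBS tumors and 1044 CPM in the Pdgfrb-TK/PBS tumors. Among those 5, 4 were at least 2-fold higher and 1 at least 2-fold lower, against 9.31% and 6.28% of all tested genes. Ly6a, which encodes the stem cell antigen Sca-1, was at 658 against 45.6 CPM (3.82), Pi16, a gene of adventitial fibroblasts, at 312 against 37.6 CPM (3.02) and Cd34 at 110 against 15.6 CPM (2.74). The Pdgfrb-TK/PBS tumors lay between, at 121, 132 and 67.7 CPM. The lower one was Fabp4, the fatty acid chaperone of adipocytes, at 38.3 against 78.3 CPM (-1.01), with 212 CPM in the Pdgfrb-TK/PBS tumors. Pdgfrb was at 271 CPM (261 to 281) against 170 CPM (164 to 177), a ratio of 0.67, and Dcn, the proteoglycan decorin, at 3255 against 1572 CPM (1.05). Both were also higher in the Pdgfrb-TK/PBS tumors than in the PBS tumors, at 243 CPM (0.51) and 2462 CPM (0.65). The small proteoglycans Ogn and Prelp were higher, with ratios of 2.35 and 2.13, and Aspn lower, with -1.56. Of 14 collagens 7 were higher and 7 lower, with Col14a1 at 1.10, Col11a1 at -1.97 and Col1a1 at 0.16. As with macrophages, the classes were made of different clusters: cluster 3 held 70.4% of the CAFs of the D-CAN tumors and 1.24% of those of the PBS tumors, and cluster 2 held 23.8% and 94.4%.

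Of the tumor cell genes 316 were at least 2-fold higher in the D-CAN tumors and 103 lower, and interferon genes were among the former. Iigp1, Gbp2 and Irgm1 were 3 of the 10 tumor genes with the largest ratios, and Cd74 was at 109 against 28.8 CPM (1.88). Immunoglobulin genes, which belong to plasma cells, were on the same list: Iglc1 was at 80.2 CPM in 90 tumor cells against no UMI, and Igha at 53.2 CPM in 159 cells against 0.117 CPM. Of 12 cell cycle genes 10 were higher and 2 lower with none at 2-fold, with Mki67 at 84.3 against 47.1 CPM (0.82) and Top2a at 113 against 62.0 CPM (0.86). Leukocyte attractants went both ways. Of the T cell ligands and chemokines 5 of the 6 that passed the filter were lower, with Cxcl1 at 22.3 against 67.2 CPM (-1.55) and Ccl2 at 41.1 against 93.4 CPM (-1.16). For these 2 chemokines the Pdgfrb-TK/PBS tumors were lower again, at 15.7 and 5.08 CPM. Cxcl9 of the same list, which did not pass the filter, was at 31.6 CPM (30.5 to 32.7) in 370 tumor cells against 1.11 CPM (0.927 to 1.31) in 22 (3.95). The leading clusters of the tumor cells differed between the libraries: clusters 8 and 9 held 34.7% and 28.8% of those of the D-CAN tumors, and clusters 11 and 10 held 26.9% and 20.9% of those of the PBS tumors.

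Some gastric-type secretory genes, which KPC tumors can express, were lower in the D-CAN tumors than in both untreated libraries. Tff1, a trefoil factor, was at 768 against 2207 CPM (-1.52), with 6254 CPM in the Pdgfrb-TK/PBS tumors, and Gkn2, a gastrokine, at 10.2 against 76.1 CPM (-2.79), with 264 CPM. The wider epithelial list had a median of 0.12, with Muc1 at 126 against 91.9 CPM. Of the cell death genes 2 were higher and 3 lower; Pmaip1, which encodes the BH3 protein NOXA, was at 41.4 against 119 CPM (-1.50). The EMT list had a median of -0.32, with the matrix protein gene Sparc at 76.9 against 196 CPM (-1.34) and Vim at 1659 against 2482 CPM (-0.58).

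Dissociation and heat shock genes differed among the libraries, and their values stand beside all of the above. The median ratio of 12 dissociation and heat shock genes was -0.57 in tumor cells, -1.20 in fibroblasts, -0.18 in ECs, 1.07 in neutrophils and 0.23 in macrophages. Between the untreated libraries it was -1.37, -2.47, -3.44, -0.03 and -1.10. In neutrophils their sum was highest in the D-CAN tumors, at 20314 CPM against 9004 CPM in the PBS tumors and 8855 CPM in the Pdgfrb-TK/PBS tumors. In tumor cells, fibroblasts, ECs and macrophages it was highest in the WT/PBS library, at 5304, 17201, 14187 and 8228 CPM. The D-CAN tumors had 2936, 5278, 7008 and 7350 CPM there. In ECs 5 of the 12 were nevertheless higher in the D-CAN tumors, and without the ECs with lymphatic genes the EC median turned to 0.32. Cxcl1 in tumor cells and fibroblasts and Icam1, Sele and Ccl2 in ECs were also highest in the WT/PBS library. The part of tissue handling in the results was not tested, and with 1 library per group handling and treatment cannot be told apart. Of 15 tested hypoxia and glycolysis genes in tumor cells 13 were higher and 2 lower, with a median of 0.31. Over all 5724 tested tumor cell genes 3353 were higher, with a median of 0.09.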

How the data were processed

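Single cells of dissociated KPC tumors were captured with 10x Genomics chemistry, 1 library per condition, each from tumors pooled by treatment. The authors aligned the reads to mm10 with Cell Ranger and STAR 2.6, by the submitters' processing notes, and deposited filtered matrices of UMI counts, which are whole numbers per gene and cell and are not normalized. Cells with at least 200 genes were kept here, and nothing was removed for mitochondrial share in the main result. Doublets were not removed in the main result. The doublet caller marked at most 0.44% of the cells of a library, which does not show that doublets were rare. Cells that scored for several classes were set aside, and an alternative left out the 8% of cells with the highest doublet scores. The gate scored a class as the mean log1p of UMIs per 10000 over its 3 highest markers. UMIs were summed per class and library over 32285 genes, with the features for GFP and Tdtomato kept out, and converted to CPM; genes with a mean of at least 25 CPM and at least 50 UMIs were compared in classes with at least 50 cells in each library. Shares have exact Clopper-Pearson intervals, folds of shares exact conditional binomial intervals and CPM exact Poisson intervals, all at 95% and for counting error only. With 1 library per group there was no test, and past 2-fold is a description. The depth was 130115741 UMIs in the D-CAN library and 155408336 UMIs in the WT/PBS library.

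Genes were named by a rule: list members with the largest ratios and those that describe a list, the 10 largest ratios in each direction per class without mitochondrial genes, gate markers and genes lower in the class than in the whole library, and Pdgfrb, Dcn and Emcn. The classes, members and gene lists were chosen with earlier results of these data known. Alternatives changed the cell filter, the gate, its margin, the depth (thinned to 1000 UMIs), doublet scores, the pseudocount (1 against 10 CPM), the expression filter and the control library. Shares over classed cells and over host cells, and ECs without lymphatic cells, were added after seeing the data. The folds were tested on simulated data. Software was Python 3.11.15 with scanpy 1.11.5, numpy 2.4.6, scipy 1.17.1 and pandas 2.3.3. Promoters came from RefSeq on GRCm38.p6.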

Additional observations from a re-analysis of the deposited data

Results flagged for a closer look

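Features for fluorescent reporters were present in the matrices of both WT libraries, although the labels name no reporter, and they were left out of the totals and comparisons. In the kept cells 604 UMIs of GFPcds were counted in the D-CAN library and 2017 in the WT/PBS library, and 676 and 1826 UMIs of Tdtomato. All 4 values were above the limit of 3 counts that a count of 0 allows. Per class, GFPcds and Tdtomato were at 26.6 and 57.1 CPM in ECs of the D-CAN tumors and at 83.3 and 118 CPM in those of the PBS tumors. In fibroblasts they were at 4.27 and 5.60 CPM against 44.6 and 42.8 CPM. In neutrophils the D-CAN tumors had more, with 109 and 81.5 CPM against 46.1 and 58.8 CPM. Of the 5 compared classes tumor cells held the least in both libraries, with 0.419 and 0.30 CPM against 2.57 and 0.849 CPM.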

How the results depend on the processing

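The control library was the choice with the widest effect. With Pdgfrb-TK/PBS in place of WT/PBS the log2 ratio of the share was -0.85 for tumor cells, -0.26 for ECs, 1.07 for B cells, 5.80 for T cells and 1.24 for macrophages, and it reversed to 1.49 for fibroblasts and 0.64 for pericytes. The counts of genes at least 2-fold higher and lower were then 120 and 55 in tumor cells, 399 and 148 in ECs and 296 and 121 in macrophages, and 152 fibroblast and 217 neutrophil genes were at least 2-fold lower. List medians reversed in fibroblasts for myCAF genes (0.28), apCAF genes (-0.59) and heat shock genes (1.35). Genes that reversed in tumor cells were Cxcl1 (0.48), Ccl2 (2.79), Hspb1 (1.67) and Hspa1a (2.39). In fibroblasts they were Postn (0.35), Col12a1 (0.54), Tac1 (1.22), Il1rl1 (0.64), Aspn (0.74), Saa3 (-1.21), Cxcl1 (3.53), Hspb1 (0.21) and Hspa1a (2.91). In ECs they were Ifit1 (1.06), Csf3 (1.18), Ccl2 (3.42), Icam1 (1.78), Sele (4.57), Vcam1 (0.84), Ackr1 (0.77), Vwf (-0.96), Hspb1 (4.36), Hspa1a (5.30) and Hmox1 (3.49). In neutrophils they were Il1b (-0.96), Il1a (-1.23), Osm (-1.59), Ccl4 (-0.54), Ptgs2 (-1.51), Elane (2.47), Prtn3 (1.04), Ngp (0.48), Hspb1 (0.46) and Rsad2 (-1.68). In macrophages they were Cxcl1 (1.93), Cxcl2 (1.21), Cxcl3 (1.83), Ccl3 (0.16), Ccl4 (0.16), Ccl5 (2.03), Ccl12 (-0.08), Ccl24 (-1.11), Ccr2 (-0.12) and Il10 (1.97). Of these, Ccl12 and Ccr2 were nearly level with the Pdgfrb-TK/PBS tumors. Macrophage Il6 was also counted as reversed, but its ratio of 0.00 has no direction. The cause was not tested.

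Other settings moved shares without turning a direction. The log2 ratio of the tumor share was -0.31 with at least 500 genes per cell, -0.28 without cells over 20% mitochondrial UMIs, -0.36 with 2 markers, -0.36 by cluster and -0.26 over classed cells. That of fibroblasts was -0.32, -0.29, -0.65 by cluster, -0.29 over classed cells, -0.69 over host cells and -0.11 after thinning to 1000 UMIs. For T cells it was 5.29 with a margin of 0.5, 5.20 after thinning and 3.09 by cluster, and for B cells 6.30 after thinning. For neutrophils it was 0.92 without cells over 20% mitochondrial UMIs and 0.50 over host cells. For macrophages it was 0.44 without those cells, 0.44 after thinning, 0.46 over classed cells and 0.05 over host cells. Without the expression filter the counts of genes at least 2-fold higher and lower, most of them from a few UMIs, were 1281 and 424 in tumor cells, 1966 and 1145 in fibroblasts, 3268 and 1611 in ECs, 2392 and 2558 in neutrophils and 1828 and 773 in macrophages. A pseudocount of 10 CPM left 196 higher genes in tumor cells, and classes by cluster left 181 lower genes in neutrophils. Without ECs with lymphatic genes the lymphatic median reversed to -1.50, with Prox1 at -1.50, Mmrn1 at -1.50, Lyve1 at -2.15 and Reln at -0.54, since that setting removes the cells that carry them. Pericyte and dendritic shares by cluster gave no value, because no cluster of either library was given these classes, so no value by cluster stands beside the gate's. The B cell share by cluster (96 cells in D-CAN) and the dendritic share after thinning (23 cells) gave none because WT/PBS had 0 cells. Over all settings, 67 share values, 82 gene counts, 536 list medians and 1389 named-gene values were counted as the same as the reported value. In the same order, 26, 20, 37 and 190 were counted as moved and 2, 0, 4 and 49 as reversed. With Pdgfrb-TK/PBS as control, 36 named-gene values were the same, 95 moved and 45 reversed. No paired analysis was possible because each group was 1 library, and for the same reason no replicate could be left out.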
